A study of Mus musculus with 21 samples.

Results

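Nicotinic acetylcholine receptor subunits were followed in RNA-seq of mouse midbrain through 8 genes, Chrna3, Chrna4, Chrna5, Chrna6, Chrna7, Chrnb2, Chrnb3 and Chrnb4. These genes were chosen by name, and all 8 were found in both deposited tables, with 33829 genes listed for pre-treatment and 55385 for delayed treatment. The mice were 21 male C57BL/6 animals, 6 weeks old per the labels, in 7 groups of 3, and every mouse received intraperitoneal injections. MPTP, a neurotoxin taken up by dopaminergic neurons after its conversion in the brain, was given at 30 mg/kg per day for 5 days. Irisin, a peptide hormone released by muscle, was given at 200 µg/kg per day for 5 days, and ddH2O was the vehicle. In the pre-treatment experiment (9 mice), control mice received ddH2O only (Control_M), MPTP treated mice received ddH2O and then MPTP (MPTP_M), and irisin pre-treated mice received irisin and then MPTP (Irisin_MPTP_M). In the delayed treatment experiment (12 mice), control mice received ddH2O only (CONTROL), irisin treated mice received ddH2O and then irisin (IRISIN), MPTP treated mice received MPTP and then ddH2O (MPTP), and delayed irisin mice received MPTP and then irisin (MPTP_IRISIN). The labels name midbrain as the tissue, and the study's methods describe nigral tissue dissected by hand, so each library holds many cell types.

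Nicotinic receptors are ion channels made of a ring of subunits around a cation pore, opened by acetylcholine and by nicotine. Subunits encoded by Chrna4 and Chrnb2 form the most widespread heteromeric receptors of the brain, while Chrna7 encodes a subunit that can form channels by itself. Chrna6 and Chrnb3 are best known from catecholaminergic neurons, including the dopaminergic neurons of the substantia nigra, where their products assemble with those of Chrna4 and Chrnb2 and reach the striatal terminals. Chrna3, Chrnb4 and Chrna5 lie next to one another in the genome, and their products form receptors of autonomic ganglia and of the medial habenula, with the product of Chrna5 acting as an accessory subunit.

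In the coordinates of the tables, which are those of GRCm38, Chrnb3 (ENSMUSG00000031492) lay on chromosome 8 from 27368711 to 27399730 on the plus strand. Chrna6 (ENSMUSG00000031491) followed it at 27403212 to 27413944 on the minus strand, 3481 bases beyond the end of Chrnb3. On chromosome 9, Chrna5 (ENSMUSG00000035594) lay at 54980880 to 55006918 on the plus strand, Chrna3 (ENSMUSG00000032303) at 55010111 to 55026562 on the minus strand and Chrnb4 (ENSMUSG00000035200) at 55028154 to 55048779 on the minus strand, with gaps of 3192 and 1591 bases. The other members were single, with Chrna4 (ENSMUSG00000027577) on chromosome 2 at 181018380 to 181039225, Chrnb2 (ENSMUSG00000027950) on chromosome 3 at 89746195 to 89764608 and Chrna7 (ENSMUSG00000030525) on chromosome 7 at 63098692 to 63212569, each on the minus strand.

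RefSeq promoter windows of GRCm38.p6, each 300 bases around a gene's start, were found for 6 of the 8 members. Chrna6 and Chrnb3 had no window, so nothing is said here of their promoters. The windows of Chrna4 and Chrnb2, the subunits with the highest levels per length, are shown beside those of Chrna3 and Chrnb4, which share a gene cluster and had lower levels than these 2. They cover chr2:181039128-181039427, chr3:89764583-89764882, chr9:55026513-55026812 and chr9:55048495-55048794, all on the minus strand and written 5′ to 3′ in the direction of the gene. Capitals mark the GC box, GGGCGG on either strand, a motif bound by Sp1-type factors.
Chrna4: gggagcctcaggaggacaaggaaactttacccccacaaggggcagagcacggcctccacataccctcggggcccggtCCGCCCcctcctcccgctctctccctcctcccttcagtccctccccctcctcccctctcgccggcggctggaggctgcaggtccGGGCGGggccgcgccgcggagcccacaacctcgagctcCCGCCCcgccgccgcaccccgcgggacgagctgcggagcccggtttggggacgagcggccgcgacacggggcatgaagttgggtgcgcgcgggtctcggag
Chrnb2: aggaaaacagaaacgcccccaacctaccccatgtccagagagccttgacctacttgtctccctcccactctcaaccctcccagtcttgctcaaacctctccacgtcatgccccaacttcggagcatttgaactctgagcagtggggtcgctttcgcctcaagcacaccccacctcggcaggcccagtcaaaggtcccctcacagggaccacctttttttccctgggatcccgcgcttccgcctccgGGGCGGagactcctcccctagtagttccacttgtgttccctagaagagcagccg
Chrna3: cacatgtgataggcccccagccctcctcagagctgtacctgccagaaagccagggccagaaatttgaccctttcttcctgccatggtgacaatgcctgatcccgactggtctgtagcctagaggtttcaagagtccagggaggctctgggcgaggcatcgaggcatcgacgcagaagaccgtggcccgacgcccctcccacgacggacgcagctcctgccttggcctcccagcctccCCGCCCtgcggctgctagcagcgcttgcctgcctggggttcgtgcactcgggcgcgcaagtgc
Chrnb4: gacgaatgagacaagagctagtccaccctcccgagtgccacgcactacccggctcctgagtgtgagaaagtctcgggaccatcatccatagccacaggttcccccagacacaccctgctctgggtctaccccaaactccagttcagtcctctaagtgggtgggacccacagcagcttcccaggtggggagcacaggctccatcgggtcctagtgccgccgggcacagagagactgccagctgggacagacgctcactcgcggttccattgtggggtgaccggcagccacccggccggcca
The window of Chrna4 held 3 GC boxes and 33 CpG dinucleotides at a GC content of 74.3%. That of Chrnb2 held 1 GC box and 12 CpG at 59.0% GC, that of Chrna3 held 1 and 18 at 64.3%, and that of Chrnb4 held 0 and 14 at 63.0%. Among the windows not shown, that of Chrna7 held 1 and 35 at 70.0%. Chrna5, with one of the lowest levels, had a window with 4 and 25 at 65.0% and another with 0 and 5 at 41.3%. A link between these counts and the level of a subunit was not tested. Across 32851 windows of the same length, 35.7% held a GC box, and the medians were 52.7% GC and 7 CpG. The NBRE motif AAAGGTCA and the homeobox motif TAATCC, known from factors of dopaminergic neurons, were in none of the windows of these 6 members on either strand. Of all windows, 1.51% and 7.06% held them, so their absence from so few windows is not unusual. A match or its absence describes the letters of the window and no binding.

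Chrna4 was the subunit with the highest level per length in control mice of both experiments, and Chrnb2 came next. On the scale of FPKM (fragments per kilobase of gene, scaled to the depth of the library, as deposited), Chrna4 was at 12.5 ± 1.26 (SD, n = 3) in control mice of the pre-treatment experiment and at 15.3 ± 0.836 in those of the delayed treatment experiment. Chrnb2 was at 8.80 ± 1.30 and 11.6 ± 0.964, and Chrna6 at 6.25 ± 1.27 and 4.83 ± 0.495. The gap from Chrna4 to Chrnb2 held in every control mouse of both experiments, while Chrnb2 and Chrna6 overlapped in the pre-treatment experiment and were apart in the delayed one. Below them, Chrnb3 (1.41 and 1.07 FPKM), Chrna7 (1.28 and 1.63 FPKM) and Chrna3 (1.27 and 1.90 FPKM) formed a middle tier, in which the neighbouring ranges overlapped except those of Chrna7 and Chrnb3 in the delayed treatment experiment. The lowest levels were those of Chrna5 (0.334 and 0.597 FPKM) and Chrnb4 (0.206 and 0.921 FPKM). Their order differed between the experiments, with overlapping ranges in the pre-treatment controls and separate ranges in the delayed treatment controls. The ranges of Chrna3 and Chrna5 were apart in the pre-treatment controls, and those of Chrnb3 and Chrnb4 overlapped in the delayed treatment controls. From the highest to the lowest mean, the levels spanned 60.7-fold and 25.7-fold. The tables were normalized separately, so a difference in level between the experiments was not tested.

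**Figure D1:**
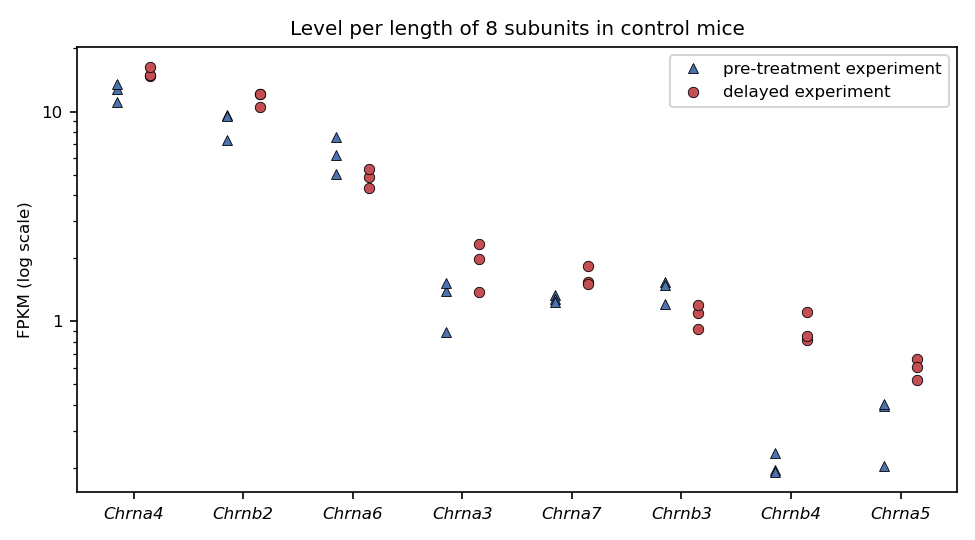
Level of each subunit in FPKM (log scale) in the 3 control mice of each experiment, 1 symbol per mouse (triangles: pre-treatment, circles: delayed treatment). Chrna4 sits highest at means of 12.5 and 15.3, and Chrna5 and Chrnb4 lowest, with Chrnb4 at 0.206 and 0.921.

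Spread between mice was smallest in Chrna4 and Chrnb2. Over the groups of both experiments, the coefficient of variation within a group was 1.68 to 8.14% for Chrna4 and 2.39 to 13.0% for Chrnb2. It reached 34.0% for Chrna6, 33.5% for Chrnb3 and 13.6% for Chrna7. Chrna3 reached 52.8% and Chrnb4 55.7%. Chrna5 was the most uneven subunit, at 8.42 to 81.9%, and rested on 31 to 224 reads per mouse, against 4034 to 5968 reads for Chrna4. All 8 members passed the filter on low counts in both experiments.

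Reads counted on genes numbered 66653781 to 75637604 in mice of the pre-treatment experiment and 48843585 to 77203445 in those of the delayed treatment experiment. Th and Slc6a3, the synthesis enzyme and the membrane transporter of dopamine, were present in every mouse, while markers of neighbouring structures were uneven between mice. MPTP treated mouse 2 of the pre-treatment experiment had 1539 CPM (counts scaled to a common library depth) of the choroid plexus gene Ttr, against 2.80 to 17.2 CPM in the other 8 mice, and the highest level of the serotonergic gene Tph2 in that experiment (171 CPM). In the delayed treatment experiment, Ttr ran from 24.2 to 1550 CPM over all groups. Delayed irisin mouse 1 and irisin treated mouse 1 stood apart in the summed level of 5 markers of habenular neurons (Tac2, Gpr151, Nwd2, Pou4f1 and Lrrc55). This sum was 119 and 93.4 CPM there, against 48.2 to 70.4 CPM in the other 10 mice. Gpr151, a receptor of the habenula, was at 7.93 and 6.64 CPM in these mice and at most at 1.58 CPM in the other 10. Nwd2 was at 40.1 and 29.3 CPM, against at most 19.0 CPM. Tac2 was less distinct, at 10.2 and 8.77 CPM, against 7.06 CPM in control mouse 1. Pou4f1 and Lrrc55 were not read singly. The part of these markers in the fold changes below was not tested, while correlations of the subunits with marker means within groups are given further below. Where a fold change is described beside one of these mice, its value without that mouse is given.

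In the delayed treatment experiment, Chrna6, Chrnb3 and Chrna4 each had lower levels in all 3 MPTP treated mice than in all 3 control mice. Chrna6, in CPM scaled by TMM, was at 14.3, 15.99 and 17.6 in control mice and at 6.03, 9.26 and 12.3 in MPTP treated mice. The groups did not overlap, and the MPTP treated mice spread over the wider range. The log2 fold change was -0.80 (SE 0.21, 95% interval -1.26 to -0.34), with an adjusted p of 0.323 in edgeR's quasi-likelihood test after Benjamini-Hochberg adjustment over 21922 genes. In bulk tissue, fewer cells of a type and less RNA per cell cannot be told apart. Leaving out single mice moved the value from -1.06, without MPTP treated mouse 3, to -0.57, without MPTP treated mouse 1. DESeq2 called Chrna6 at a log2 fold change of -0.79 and an adjusted p of 0.0358.

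Chrnb3, whose product joins that of Chrna6 in the same receptors, was at 6.69, 7.95 and 8.70 CPM in control mice and at 4.04, 6.05 and 6.05 CPM in MPTP treated mice. Its log2 fold change was -0.53 (SE 0.23, 95% interval -1.04 to -0.02, edgeR adjusted p = 0.571). Chrna4 was at 84.3, 84.9 and 93.3 CPM in control mice and at 70.4, 76.1 and 76.7 CPM in MPTP treated mice. This smaller shift of -0.23 (SE 0.06, 95% interval -0.36 to -0.10, edgeR adjusted p = 0.305) came with the smallest standard error of all members. Chrnb2 was at 115, 99.5 and 117 CPM and at 97.8, 102 and 102 CPM, so its groups overlapped, with a log2 fold change of -0.14 (95% interval -0.30 to 0.03).

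The intervals of the remaining subunits included 0 in this comparison, and those of Chrna5 and Chrnb4 were the widest. Chrna5 was at 2.36, 1.88 and 2.17 CPM in control mice and at 2.01, 0.421 and 1.44 CPM in MPTP treated mice, with a log2 fold change of -0.73 (95% interval -1.92 to 0.47). Chrnb4 was at 3.46, 3.58 and 4.70 CPM and at 4.11, 1.76 and 2.87 CPM, a log2 fold change of -0.43 (95% interval -1.36 to 0.50). The lowest of the 3 values belonged to MPTP treated mouse 2 in both genes, and in Chrnb4 the 3 mice were spread evenly. Chrna3 had a log2 fold change of -0.17 (95% interval -0.62 to 0.28), and Chrna7, the homomeric subunit, one of 0.077 (95% interval -0.23 to 0.39).

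Of the 8 subunits, 0 passed an adjusted p of 0.05 with edgeR in delayed treatment MPTP against control mice, where 0.132% of all tested genes did. With DESeq2, 1 of 8 passed (Chrna6), against 0.871% of all genes. At an unadjusted p under 0.05, edgeR gave 3 of 8 (Chrna6, Chrnb3 and Chrna4, all lower), against 8.33% of all genes. The same 3 were those whose groups did not overlap, against 16.2% of all genes. The sign was negative in 7 of 8 members, with a median log2 fold change of -0.33 beside -0.0013 over all tested genes.

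**Figure D2:**
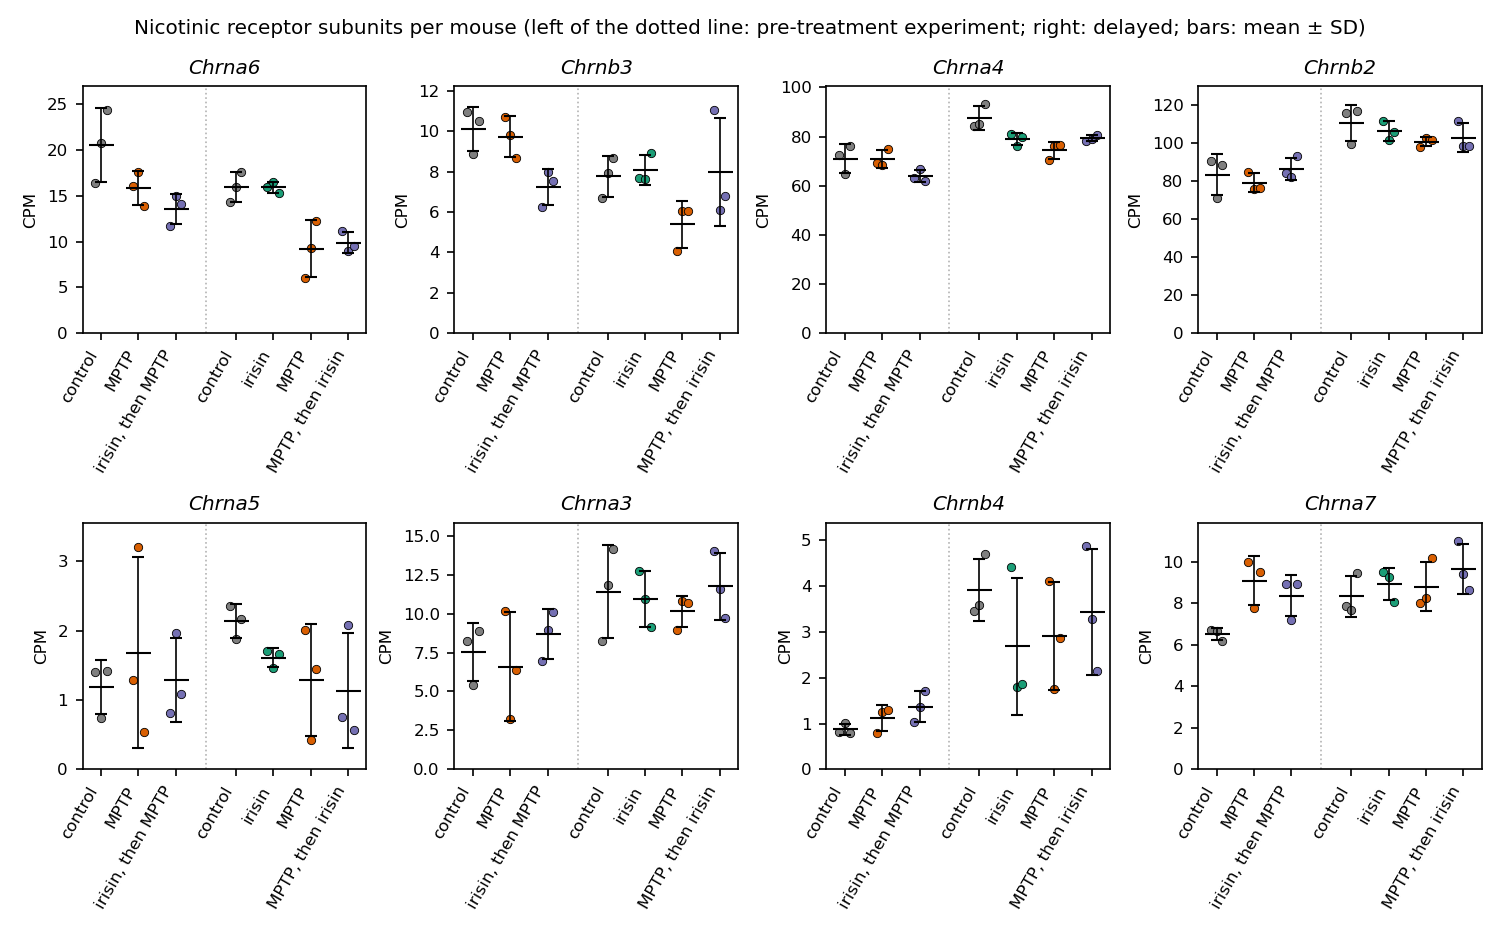
CPM of each subunit in every mouse, with the mean and SD of each group of 3 as bars. In the right-hand experiment, Chrna6 lies at 14.3 to 17.6 CPM in control mice and at 6.03 to 12.3 CPM in MPTP treated mice, and Chrna5 and Chrnb4 scatter most within groups.

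Irisin given after MPTP left Chrna6 at 11.2, 8.91 and 9.51 CPM in the 3 delayed irisin mice. These values lay inside the range of the MPTP treated mice and below every control mouse. The log2 fold change was 0.10 against MPTP treated mice (95% interval -0.35 to 0.56) and -0.70 against control mice (SE 0.21, 95% interval -1.15 to -0.24, edgeR adjusted p = 0.388). Chrnb3 was at 11.1, 6.10 and 6.82 CPM in delayed irisin mice, against 4.04, 6.05 and 6.05 CPM in MPTP treated mice.

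The separation of Chrnb3 between these groups was narrow, and on the FPKM scale the lowest delayed irisin mouse (0.846) lay under an MPTP treated mouse (0.847). Its log2 fold change was 0.57 (SE 0.23, 95% interval 0.06 to 1.08, edgeR adjusted p = 0.9995). Without delayed irisin mouse 1, which also had the summed habenular level of 119 CPM, it was 0.26, and the other single mice left out gave 0.40 to 0.73. Against control mice, Chrnb3 of the delayed irisin mice had a log2 fold change of 0.040 (95% interval -0.47 to 0.55), and -0.27 without delayed irisin mouse 1.

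Chrna4, the main partner of Chrnb2, was at 78.1, 79.2 and 80.8 CPM in delayed irisin mice. This narrow range lay between the MPTP treated and the control mice and overlapped neither, with log2 fold changes of 0.092 against MPTP treated mice (95% interval -0.038 to 0.22) and -0.14 against control mice (95% interval -0.27 to -0.01, edgeR adjusted p = 0.507). Chrnb2 was at 111, 98.0 and 98.4 CPM, with log2 fold changes of 0.028 (95% interval -0.14 to 0.19) and -0.11 (95% interval -0.27 to 0.06). Chrna7 was at 11.0, 9.42 and 8.62 CPM, and its intervals against both groups included 0.

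Chrna5 again split the delayed irisin mice, at 0.750, 2.08 and 0.571 CPM. The serotonergic gene Tph2 was at 20.7, 73.7 and 19.3 CPM in the same mice, and its part in the fold changes of Chrna5 was not tested. The log2 fold change of Chrna5 was -0.91 against control mice (95% interval -2.12 to 0.29) and -0.19 against MPTP treated mice (95% interval -1.39 to 1.02). Chrna3 was at 13.99, 11.6 and 9.71 CPM and Chrnb4 at 4.88, 3.28 and 2.14 CPM, and in both genes mouse 1, the mouse with the most habenular marker RNA, was the highest. Their log2 fold changes against MPTP treated mice were 0.21 (95% interval -0.24 to 0.66) and 0.24 (95% interval -0.69 to 1.17). Without this mouse they were 0.069 for Chrna3 and -0.10 for Chrnb4, so that the sign of Chrnb4 turned.

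With edgeR, 0 of 8 subunits passed an adjusted p of 0.05 between delayed irisin and MPTP treated mice, where 0.00456% of all tested genes did. DESeq2 also gave 0 of 8, against 0.141% of all genes. At an unadjusted p under 0.05 there was 1 of 8 (Chrnb3), against 3.9% of all genes, and in CPM 2 of 8 had groups without overlap (Chrnb3 and Chrna4, both higher), against 10.7%. Between delayed irisin and control mice, 0 of 8 passed with edgeR (0.109% of all genes) and 0 of 8 with DESeq2 (0.716%). There, 2 of 8 had an unadjusted p under 0.05 (Chrna6 and Chrna4, both lower), against 9.31% of all genes, and the same 2 had groups without overlap, against 14.6%.

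Irisin given to mice without MPTP left Chrna6 at 15.9, 16.5 and 15.3 CPM, within the range of the control mice. This was a log2 fold change of -0.0049, with a 95% interval of -0.46 to 0.45. Chrnb3 was at 7.70, 7.63 and 8.94 CPM, a log2 fold change of 0.057 (95% interval -0.45 to 0.56). Chrna4 was at 80.9, 76.2 and 79.8 CPM, below every control mouse, with a log2 fold change of -0.15 (SE 0.06, 95% interval -0.28 to -0.02, edgeR adjusted p = 0.531).

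Chrna5 was also below every control mouse in the irisin treated mice, at 1.71, 1.46 and 1.66 CPM, but its interval was wide (log2 fold change -0.41, 95% interval -1.59 to 0.78). Tph2 was at 67.7, 79.5 and 21.9 CPM in these mice, in another order than Chrna5. Chrnb4 was at 4.41, 1.79 and 1.85 CPM, and the high value belonged to irisin treated mouse 1, whose summed habenular level was 93.4 CPM. Its log2 fold change was -0.55 (95% interval -1.48 to 0.39), and -1.10 without this mouse. Those of Chrnb2, Chrna3 and Chrna7 were between -0.060 and 0.10. By edgeR, 0 of 8 subunits passed an adjusted p of 0.05 (0.109% of all tested genes), and by DESeq2 0 of 8 (0.721%). At an unadjusted p under 0.05 there was 1 of 8 (Chrna4), against 8.97% of all genes, and 2 of 8 had groups without overlap (Chrna4 and Chrna5), against 15.1%.

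The design also allowed a test of whether the irisin difference was the same with and without MPTP. This difference of differences was positive for all 8 members, with a median of 0.23 on the log2 scale beside 0.0031 over all tested genes. It was 0.24 for Chrna4 (SE 0.08, 95% interval 0.06 to 0.42, edgeR adjusted p = 0.893), 0.51 for Chrnb3 (95% interval -0.20 to 1.23) and 0.11 for Chrna6 (95% interval -0.54 to 0.75). Without delayed irisin mouse 1 it was 0.21 for Chrnb3, and that of Chrna7 turned to -0.066. Over all single mice left out, the sign turned 5 times for Chrna7, 2 times for Chrna5 (lowest value -0.55) and 1 time for Chrna6 (-0.12). All 8 values share the same 12 mice, so that they are not 8 independent observations. By edgeR, 0 of 8 passed an adjusted p of 0.05 (0.0411% of all tested genes), and by DESeq2 0 of 8 (0.297%), while 1 of 8 had an unadjusted p under 0.05 (Chrna4), against 5.57% of all genes.

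In the pre-treatment experiment, MPTP came last and the Chrna6 groups overlapped between MPTP treated and control mice. Chrna6 was at 16.3, 20.8 and 24.4 CPM in control mice and at 16.1, 17.6 and 13.9 CPM in MPTP treated mice, with a log2 fold change of -0.37 (SE 0.16, 95% interval -0.75 to 0.00, edgeR adjusted p = 0.823). Chrnb3 was at 10.9, 8.90 and 10.5 CPM and at 10.7, 9.81 and 8.68 CPM, which gave a log2 fold change of -0.055 (95% interval -0.37 to 0.26). Chrna4 was at 72.4, 64.7 and 76.0 CPM and at 69.3, 68.4 and 75.1 CPM, a log2 fold change of -0.0023 (95% interval -0.18 to 0.18).

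Chrna7 was the subunit whose groups were apart in this comparison. It was at 6.74, 6.65 and 6.18 CPM in control mice and at 10.0, 7.78 and 9.51 CPM in MPTP treated mice. This gave a log2 fold change of 0.48 (SE 0.14, 95% interval 0.17 to 0.79, edgeR adjusted p = 0.803), and 0.40 to 0.58 with single mice left out. In the delayed treatment experiment the same comparison gave 0.077 for Chrna7.

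The cluster genes of chromosome 9 were uneven in MPTP treated mouse 2, the mouse with 1539 CPM of Ttr. It had the highest Chrna5 level of its experiment (3.21 CPM, beside 1.28 and 0.546 CPM in its group) and the lowest Chrna3 level (3.22 CPM, beside 10.2 and 6.38 CPM). The log2 fold change of Chrna5 between MPTP treated and control mice was 0.50 (95% interval -0.89 to 1.89), and -0.38 without this mouse. That of Chrna3 was -0.19 (95% interval -1.04 to 0.66), and 0.14 without it. Chrnb4 had a log2 fold change of 0.36 (95% interval -0.29 to 1.005) and Chrnb2 one of -0.078 (95% interval -0.31 to 0.16).

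Between MPTP treated and control mice of the pre-treatment experiment, 0 of 8 subunits passed an adjusted p of 0.05 with edgeR (0.0221% of all tested genes) and 0 of 8 with DESeq2 (0.459%). At an unadjusted p under 0.05 there was 1 of 8 (Chrna7, higher), against 6.03% of all genes. The same gene was the 1 of 8 without overlap between groups, against 11.6%.

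Irisin pre-treated mice had Chrnb3 at 6.22, 7.97 and 7.51 CPM, below all MPTP treated and all control mice of the experiment. The log2 fold change was -0.43 against MPTP treated mice (SE 0.14, 95% interval -0.75 to -0.11, edgeR adjusted p = 0.631) and -0.48 against control mice (SE 0.14, 95% interval -0.80 to -0.16, edgeR adjusted p = 0.489). Chrna6 was at 11.7, 14.9 and 14.1 CPM, which overlapped the MPTP treated mice and lay below all control mice. Its log2 fold changes were -0.22 (95% interval -0.60 to 0.15) and -0.60 (SE 0.17, 95% interval -0.97 to -0.22, edgeR adjusted p = 0.456).

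Chrna4 of the irisin pre-treated mice, at 63.1, 66.8 and 62.1 CPM, lay below all MPTP treated mice, with a log2 fold change of -0.15 (95% interval -0.32 to 0.03, edgeR adjusted p = 0.887). Chrnb2, at 83.9, 81.8 and 92.8 CPM, had a log2 fold change of 0.13 (95% interval -0.11 to 0.36) in the same comparison. Chrna7 was at 8.95, 7.22 and 8.92 CPM, above all control mice, with a log2 fold change of 0.36 (95% interval 0.05 to 0.67, edgeR adjusted p = 0.648) against them and -0.12 (95% interval -0.43 to 0.19) against MPTP treated mice.

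Chrnb4, which rested on 55 to 124 reads per mouse in this experiment, was at 0.820, 1.02 and 0.792 CPM in control mice and at 1.04, 1.37 and 1.70 CPM in irisin pre-treated mice. These ranges did not overlap, and the log2 fold change was 0.65 (95% interval 0.00 to 1.29, edgeR adjusted p = 0.701). Chrna3 was at 6.98, 8.97 and 10.1 CPM and Chrna5 at 0.809, 1.97 and 1.09 CPM in the irisin pre-treated mice, and their groups overlapped with both others.

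Against MPTP treated mice, 0 of 8 subunits of the irisin pre-treated mice passed an adjusted p of 0.05 with edgeR (0.0707% of all tested genes) and 0 of 8 with DESeq2 (0.857%). There, 1 of 8 had an unadjusted p under 0.05 (Chrnb3), against 6.22% of all genes, and 2 of 8 had groups without overlap (Chrnb3 and Chrna4, both lower), against 14.2%. Against control mice, 0 of 8 passed with edgeR (0.0707%) and 0 of 8 with DESeq2 (0.954%). There, 3 of 8 had an unadjusted p under 0.05 (Chrna6 and Chrnb3 lower, Chrna7 higher), against 7.12% of all genes, and 4 of 8 had groups without overlap (the same 3 and Chrnb4), against 13.6%. The comparisons within an experiment share groups of mice, so their values are not independent of one another.

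**Figure D3:**
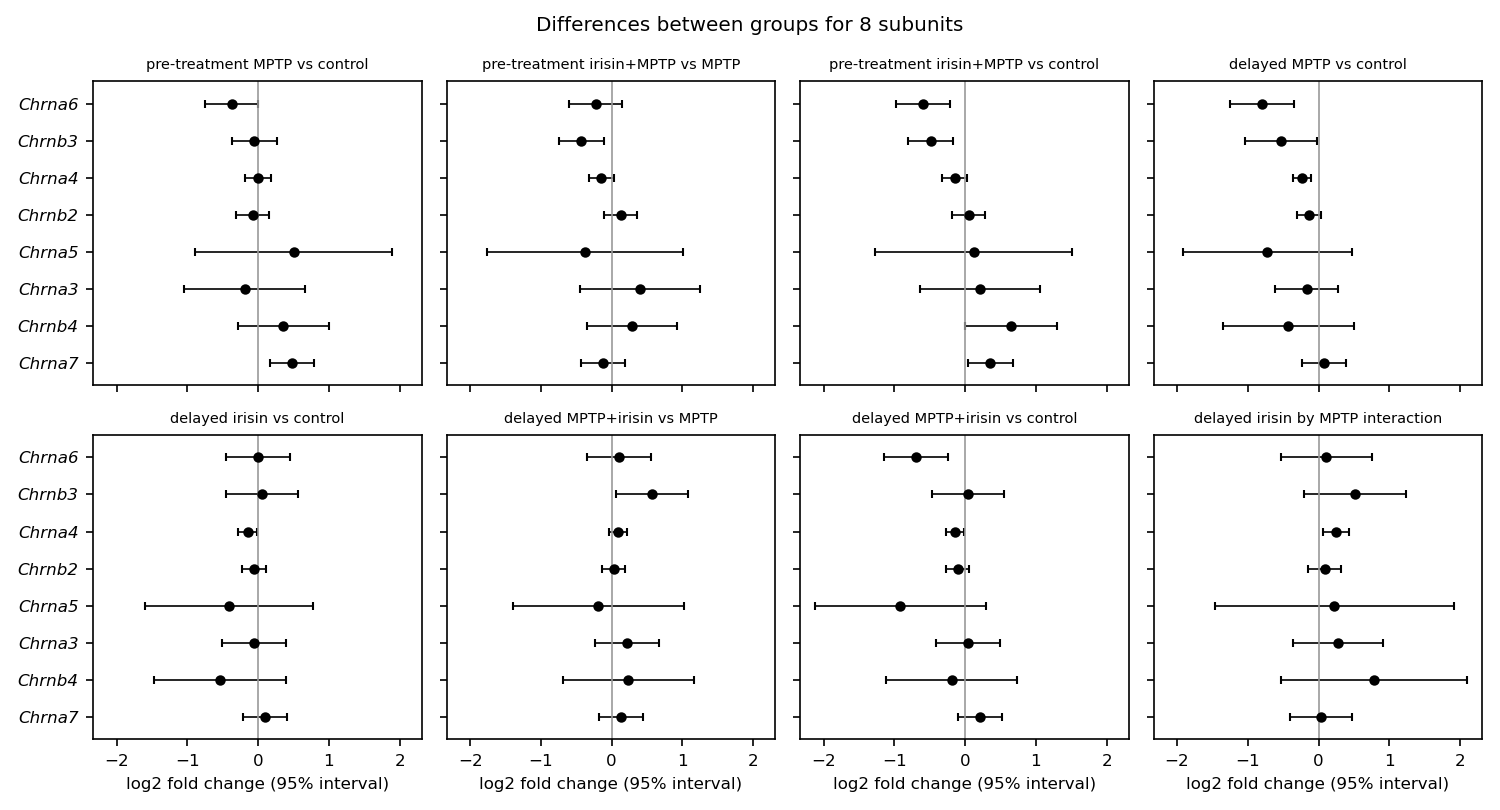
Log2 fold change of each subunit with its 95% interval in the 8 comparisons, from edgeR's fit across all genes of an experiment (an interval that excludes 0 corresponds to an unadjusted p under 0.05). In delayed treatment MPTP against control mice, Chrna6 lies at -0.80, Chrnb3 at -0.53 and Chrna4 at -0.23, and the intervals of Chrna5 and Chrnb4 are the widest in each panel of that experiment.

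Chrna6 was read beside genes of dopaminergic neurons, the cells that MPTP damages. Slc6a3 was at 62.9, 66.2 and 67.4 CPM in control mice of the delayed treatment experiment, at 15.3, 24.3 and 53.5 CPM in MPTP treated mice and at 35.1, 24.5 and 19.2 CPM in delayed irisin mice. The MPTP treated mouse with the lowest Slc6a3 also had the lowest Chrna6 (6.03 CPM), and the one with the highest Slc6a3 had the highest Chrna6 (12.3 CPM). Log2 fold changes in delayed treatment MPTP against control mice were -1.08 for Slc6a3 (edgeR adjusted p = 0.458), -0.68 for Th (edgeR adjusted p = 0.188) and -0.40 for Slc18a2, the vesicular monoamine transporter (edgeR adjusted p = 0.707).

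Of 16 genes listed as dopaminergic neuron markers, 0 passed an adjusted p of 0.05 with edgeR in this comparison, 9 had an unadjusted p under 0.05 (8.33% of all tested genes did), and all 16 had a negative sign, with a median of -0.40 beside -0.0013 over all tested genes. In delayed irisin against control mice, 10 had an unadjusted p under 0.05 (9.31% of all genes) and all 16 were negative, with a median of -0.54 beside -0.00072 over all genes. A negative sign was also common without MPTP. In irisin treated against control mice 15 were negative, with a median of -0.20 beside -0.0023 over all genes. There, 4 had an unadjusted p under 0.05 (8.97% of all genes). Negative signs were not limited to this list. All 4 serotonergic markers (Tph2, Slc6a4, Fev and Gata3) were negative in delayed treatment MPTP against control mice, with a median of -0.39. In delayed irisin against control mice 3 of them were negative (median -1.04), and in irisin treated against control mice all 4 (median -0.50). Of these 4 markers, 0 had an unadjusted p under 0.05 in any of the 3 comparisons. In MPTP against control mice of the pre-treatment experiment 1 of 16 dopaminergic markers had an unadjusted p under 0.05 (6.03% of all genes) and 7 were negative. The median there was positive, at 0.088 beside -0.0018 over all genes. In irisin pre-treated against control mice these counts were 3 (7.12% of all genes) and 14, with a median of -0.16 beside 0.0037. The 4 serotonergic markers had positive medians in these comparisons, 0.95 and 0.47.

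Since Chrna6 and Slc6a3 both varied, their log2 CPM ratio was taken in each mouse. Such a ratio is not scaled by gene length, so that only its differences between groups can be read. In the delayed treatment experiment the ratio was -2.04 ± 0.10 (SD, n = 3) in control mice, -1.86 ± 0.26 in irisin treated mice, -1.62 ± 0.44 in MPTP treated mice and -1.37 ± 0.33 in delayed irisin mice. In the pre-treatment experiment it was -2.10 ± 0.25 in control mice, -1.83 ± 0.14 in MPTP treated mice and -1.15 ± 0.25 in irisin pre-treated mice. Slc6a3 was lowest there, at 28.3, 37.2 and 25.7 CPM in irisin pre-treated mice, against 51.3, 65.5 and 52.1 CPM in MPTP treated and 58.9, 106 and 105 CPM in control mice, and the mean of Chrna6 was also lowest in the irisin pre-treated mice. In each experiment the mean of the ratio was highest in the group that received both MPTP and irisin, and no test was run on it. The log2 ratio of Chrna6 to Th was -1.85 ± 0.31, -1.73 ± 0.15, -2.01 ± 0.31 and -1.82 ± 0.20 in the 4 groups of the delayed treatment experiment in the same order, which overlap.

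**Figure D4:**
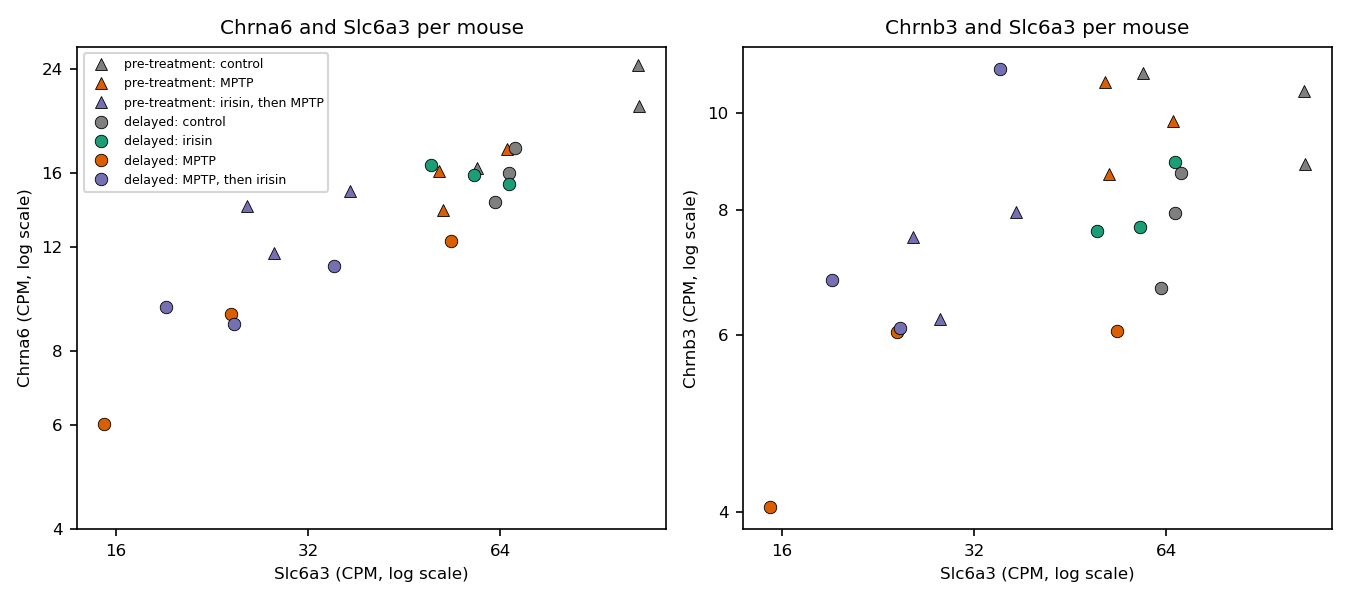
Chrna6 (left) and Chrnb3 (right) against Slc6a3, in CPM on log axes, 1 symbol per mouse (triangles: pre-treatment, circles: delayed treatment, colours: groups). The mouse with the least Chrna6 (6.03 CPM) is also the one with the least Slc6a3 (15.3 CPM), and delayed irisin mouse 1, with 11.1 CPM of Chrnb3, lies above the other delayed treatment mice in the right panel.

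For 7 of the subunits, the genes with the most similar pattern are given, taken from 21152 genes tested in both experiments, by Pearson's r of log2 CPM over 21 mice after subtracting the mean of each experiment. These are the highest of many values, so they carry no p, and treatment groups and dissection are shared by all points. For Chrna6, Slc6a3 was first (r = 0.919, Spearman's rho = 0.903, r = 0.898 without the 2 farthest mice, 0.902 in the pre-treatment and 0.942 in the delayed treatment experiment). Th was next (r = 0.843, rho = 0.851, r = 0.848 without the 2 farthest mice). Sstr5, a somatostatin receptor, had r = 0.803 over all mice but 0.261 in the pre-treatment experiment, and Gucy2c (r = 0.777) and Cfdp1 (r = 0.763) completed the first 5.

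For Chrna5, the first genes were Slc18a2 (r = 0.814, rho = 0.816, r = 0.746 without the 2 farthest mice) and Ddc (r = 0.802, rho = 0.777, r = 0.720), which code for steps shared by dopaminergic and serotonergic neurons. Chrna3 was closest to Celf5 (r = 0.893) and Cpe (r = 0.890), followed by the transcription factor genes Tfap2b (r = 0.890) and Shox2 (r = 0.878). Chrna4 was closest to Rcan1 (r = 0.756), Chrna7 to Prkar2a (r = 0.849), Chrnb2 to 6330403K07Rik (r = 0.833) and Chrnb4 to Zfp809 (r = 0.751). Of the first 5 genes of any subunit, 0 were another of the 8 subunits.

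To see what varied together apart from the treatments, each subunit's log2 CPM was taken as its deviation from the group mean, over 21 mice and 68 pairs of measures, with a permutation test within groups (100000 resamples, two-sided) and Benjamini-Hochberg adjustment over the pairs. Chrna3 followed the mean of the 5 habenular markers (r = 0.698, adjusted permutation p = 0.0333, rho = 0.840, adjusted permutation p = 0.0163). The correlation was 0.741 without the 2 mice farthest in Chrna3 and also 0.741 without irisin treated mouse 1 and delayed irisin mouse 1, and it was 0.878 within the pre-treatment and 0.647 within the delayed treatment experiment. Chrnb2 also followed these markers (r = 0.776, adjusted permutation p = 0.0381, rho = 0.755, adjusted permutation p = 0.117), with r = 0.772 without the 2 mice farthest in Chrnb2, 0.842 in the pre-treatment and 0.789 in the delayed treatment experiment. The marker lists were chosen with earlier results of these data known, so these p-values do not come from markers fixed before the data were seen.

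In the other 66 pairs the adjusted p of r was over 0.05. Among them, Chrna6 and Slc6a3 had r = 0.841 (adjusted permutation p = 0.144), or 0.648 without the 2 mice farthest in Chrna6. Chrna5 and the mean of 4 serotonergic markers had r = 0.707 (adjusted permutation p = 0.144), and Chrna6 and Chrnb3 had r = 0.641 (adjusted permutation p = 0.178).

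**Figure D5:**
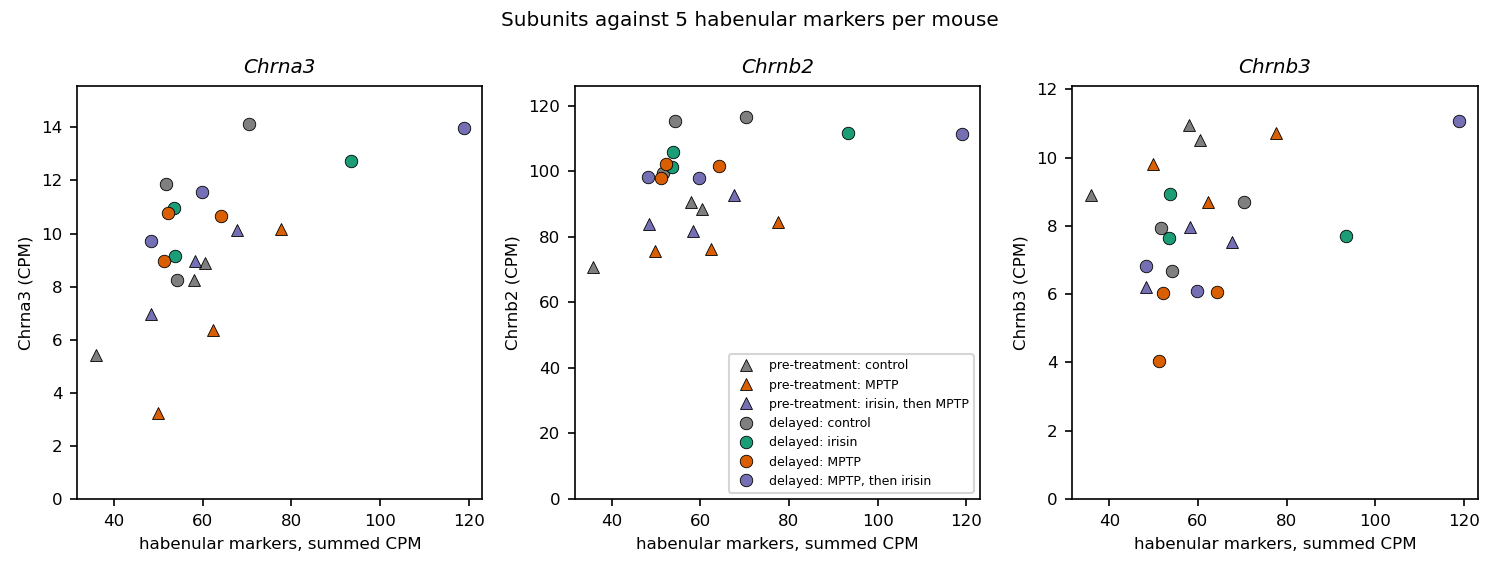
Chrna3, Chrnb2 and Chrnb3 in CPM against the summed CPM of 5 habenular markers, 1 symbol per mouse (triangles: pre-treatment, circles: delayed treatment, colours: groups). Delayed irisin mouse 1 (119 CPM of markers) and irisin treated mouse 1 (93.4 CPM) lie to the right of the other mice, and the former has the highest Chrnb3 of its experiment (11.1 CPM).

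Other genes of cholinergic signalling were read by their lists. Of 8 other nicotinic subunit genes, those of muscle and sensory hair cells among them, 3 had enough reads to be tested in each experiment, and all 8 together summed to 2.45 to 8.03 CPM per mouse, against 179 to 267 CPM for the 8 members. Of 7 genes for chaperones and modulators of nicotinic receptors, 0 passed an adjusted p of 0.05 with edgeR in any of the 8 comparisons, and at most 1 had an unadjusted p under 0.05 in a comparison. Over all genes, 0.00456 to 0.132% passed the former and 3.9 to 9.31% the latter, depending on the comparison. Of 5 muscarinic receptor genes, 0 passed and at most 2 had an unadjusted p under 0.05.

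Of 7 genes for synthesis, transport and breakdown of acetylcholine, 0 passed an adjusted p of 0.05 with edgeR in any comparison, and at most 3 had an unadjusted p under 0.05. These 3, Chat among them, were lower in delayed irisin than in MPTP treated mice, where 3.9% of all genes had such a p. In that comparison all 7 had a negative sign, with a median of -0.22 beside -0.00016 over all tested genes. Chat, the enzyme that makes acetylcholine, was at 18.5, 15.7 and 19.0 CPM in MPTP treated mice and at 12.1, 16.3 and 12.5 CPM in delayed irisin mice of the delayed treatment experiment. These groups overlapped, with a log2 fold change of -0.38 (edgeR adjusted p = 0.9995). Against control mice, which were at 16.01, 16.5 and 17.1 CPM, Chat in delayed irisin mice had a log2 fold change of -0.28 (edgeR adjusted p = 0.602).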

How the data were processed

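Midbrain RNA-seq libraries of 21 mice were used, in 7 groups of 3 taken from the sample labels. Per the methods, the authors ran featureCounts, and they deposited a raw count and an FPKM value per gene and mouse. The submitters' processing notes name HISAT, StringTie, edgeR and the build mm9, whereas 99.6% of the 55144 genes found in GENCODE M21 have the GRCm38 chromosome and start. The use of strand in counting is not given in the sources used here.

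Tests ran on the deposited counts with edgeR 4.0.16 under R 4.3.3, as the two-sided quasi-likelihood test after TMM scaling. filterByExpr kept genes with at least 10 counts in enough mice and 15 in total. Groups of an experiment were fitted together and the experiments apart, in 8 comparisons, with Benjamini-Hochberg adjustment over 22641 genes (pre-treatment) or 21922 genes (delayed treatment) and a threshold of 0.05. CPM values are TMM scaled, and log2 CPM used a prior count of 2. The deposited FPKM values by the authors served for levels between genes. The test was checked on simulated data. The labels do not say whether libraries came from separate dissections beyond 1 mouse each. The p-values of edgeR set a difference between groups against the spread between these mice. This spread was estimated over all groups of an experiment, with information shared between genes.

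DESeq2 1.42.0, median ratio scaling, no filter, the replicate number as a block and leaving out each mouse were tried as alternatives. Correlations used Python 3.11.15 and SciPy 1.17.1. The members and gene lists were chosen with earlier results of these data known. All 8 members are named. Th, Slc6a3, Slc18a2 and Chat are named as fixed markers, list genes past the threshold would be named (at most 4 per list and comparison), and the 5 most similar genes of a member come from Pearson's r. The most similar genes of Chrnb3 are not reported here. The markers of MPTP treated mouse 2 and of the 2 mice with high habenular levels were named after their values were seen. Mouse numbers did not pair mice across groups.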

Additional observations from a re-analysis of the deposited data

Results flagged for a closer look

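The difference between irisin and no irisin in MPTP treated mice had opposite signs between the 2 experiments for 2 of the 8 subunits, with no overlap between the groups in CPM in either experiment. On the FPKM scale the groups of Chrnb3 overlapped in the delayed treatment experiment (0.846 in the lowest delayed irisin mouse and 0.847 in an MPTP treated mouse). For Chrnb3 the log2 fold change was -0.43 when irisin was given before MPTP and 0.57 when it was given after MPTP. The latter was 0.26 without delayed irisin mouse 1. For Chrna4 the values were -0.15 and 0.092. Of all tested genes, 14.2% had no overlap between irisin pre-treated and MPTP treated mice. Between delayed irisin and MPTP treated mice, 10.7% had none. How many genes were apart in both comparisons with opposite signs was not counted. The count of 2 of the 8 subunits therefore has no share of all genes to be read against. The difference between the experiments was not tested, since the tables were normalized separately and the schedules of injections differed. None of these 4 fold changes passed an adjusted p of 0.05 with edgeR's quasi-likelihood test or with DESeq2, and Chrnb3 had an unadjusted p under 0.05 in both experiments with edgeR. Groups of 3 mice are too small for a test of single outlying mice.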

How the results depend on the processing

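The count of 0 of 8 subunits past an adjusted p of 0.05 was the same in 7 of 8 comparisons under DESeq2, and in all 8 under median ratio scaling, no filter, the replicate block and each mouse left out. The exception was delayed treatment MPTP against control mice, where DESeq2 called 1 subunit, Chrna6. Over all genes DESeq2 called 104, 194, 216, 191, 158, 31, 157 and 65 genes in the 8 comparisons (pre-treatment MPTP against control, irisin pre-treated against MPTP and against control, delayed treatment MPTP against control, irisin against control, delayed irisin against MPTP and against control, and the difference of differences), against 5, 16, 16, 29, 24, 1, 24 and 9 with edgeR. In the fit with the replicate block these were 2, 8, 2, 17, 14, 1, 13 and 7, and no call on a subunit changed. Same-numbered mice did not deviate together (r of -0.078 to 0.10), so the numbers were not taken as pairs. Without a filter, irisin pre-treated against control mice gave 9 calls and delayed irisin against MPTP treated mice 2. The fold change of Chrna6 between irisin treated and control mice was near 0 and changed sign to 0.000725 under median ratio scaling, 0.0023 without a filter, 0.000667 with DESeq2 and 0.0053 with the replicate block, and that of Chrna5 between irisin pre-treated and control mice was -0.084 with the replicate block. Leaving out 1 mouse turned the sign of 40 of 696 fold changes, in 22 of the 64 values. In delayed treatment MPTP against control mice the ranges were -0.36 to 0.013 for Chrna3 and -0.043 to 0.18 for Chrna7. In delayed irisin against control mice they were -0.14 to 0.23 for Chrna3, -0.27 to 0.20 for Chrnb3 and -0.53 to 0.063 for Chrnb4. In irisin against control mice they were -0.25 to 0.12 for Chrna3, -0.080 to 0.073 for Chrna6 and -0.042 to 0.15 for Chrnb3. In pre-treatment MPTP against control mice they were -0.65 to 0.14 for Chrna3, -0.065 to 0.046 for Chrna4, -0.38 to 0.92 for Chrna5 and -0.14 to 0.014 for Chrnb3. In delayed irisin against MPTP treated mice they were -0.96 to 0.29 for Chrna5, -0.12 to 0.37 for Chrna6, -0.035 to 0.062 for Chrnb2 and -0.10 to 0.57 for Chrnb4. For the difference of differences they were -0.55 to 0.69 for Chrna5, -0.12 to 0.37 for Chrna6 and -0.066 to 0.16 for Chrna7. In irisin pre-treated mice they were -0.82 to 0.49 for Chrna5 against MPTP treated mice, and -0.33 to 0.36 for Chrna5 and -0.054 to 0.11 for Chrnb2 against control mice. The cause of these changes was not tested. Depth limits Chrna5 and Chrnb4 most, which had as few as 31 and 55 reads in a mouse.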

Other observations

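Ache, the enzyme that breaks down acetylcholine, was named after its values were seen. In the delayed treatment experiment its mean level was 232 ± 19.1 CPM (SD, n = 3) in control mice and 170 ± 13.0 CPM in irisin treated mice, and the log2 fold change was -0.45 (edgeR adjusted p = 0.157). In delayed irisin against control mice it was -0.50 (edgeR adjusted p = 0.0943), and in MPTP treated against control mice -0.28 (edgeR adjusted p = 0.402). Groups did not overlap in these 3 comparisons, as in 15.1%, 14.6% and 16.2% of all tested genes. They were also apart between delayed irisin mice (163 to 165 CPM) and MPTP treated mice (168 to 208 CPM), as in 10.7% of all genes. In the pre-treatment experiment, irisin pre-treated against control mice gave 0.072 (edgeR adjusted p = 0.958). Ache there was at 112 to 136 CPM in control, 88.7 to 127 CPM in MPTP treated and 115 to 141 CPM in irisin pre-treated mice, which overlap.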
